A study of Mus musculus with 24 samples.

Results

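The 10 genes described here, of 54532 in the table, encode transcription factors that cells switch on early after a stimulus. They were found by their symbols in the gene table, and all 10 were present: Fos, Fosb, Fosl2, Jun, Junb, Jund, Atf3, Egr1, Egr2 and Klf6. RNA was sequenced from macrophages (BMDMs) grown from bone marrow with L929 supernatant, and from dendritic cells (BMDCs) grown from it with GM-CSF and IL-4, of Tmem173 fl/fl C57BL/6N mice that had received tamoxifen. Tmem173 encodes STING, the adaptor that relays cytosolic DNA sensing to interferon and inflammatory genes. Cells labelled WT carried the floxed alleles without Cre, and cells labelled CRE carried the same alleles with a tamoxifen-inducible Cre under the control of Lyz2, a myeloid gene. Both were left without agonist (control, CT) or were given DMXAA (DX), an agonist of mouse STING, at 40 µM per the design text. The methods of the study state the dose by mass instead, so the concentration is uncertain, and the exposure time of these cultures was not given in the sources used here. The 8 groups held 3 libraries each, and nothing in the labels says whether these came from separate mice, so the p-values measure the spread between libraries.

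FOS and JUN proteins are basic leucine zipper factors that pair to form the dimers known as AP-1. JUN proteins can pair with each other or with FOS proteins, whereas FOS proteins need a partner. ATF3 belongs to the same class, is induced by stress and by Toll-like receptors, and restrains many inflammatory genes in macrophages. EGR1 and EGR2 are zinc finger factors of the immediate-early class that are induced downstream of MAP kinases, and EGR2 is also known from alternatively activated and lung macrophages. KLF6 is a zinc finger factor known for acting with NF-kB in macrophages. In myeloid cells, AP-1 members bind many of the enhancers that open after an inflammatory stimulus.

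Libraries differed in ways that touch the results. Total counts ranged from 15657347 to 18912887. Among the BMDMs, the 4 libraries numbered 3, 1 in each group, had a summed FPKM (fragments scaled by gene length and sequencing depth, as deposited) of 19.6 to 33.2 over 9 macrophage markers, against 5955 to 13136 in the other 8, and 1427 to 2266 over 8 fibroblast markers, against 6.45 to 95.8. These 4 libraries went against their cell type label and are shown apart, so that BMDM groups below have n = 2. Of the remaining BMDM libraries, both WT libraries numbered 2 held the most fibroblast RNA (87.8 and 95.8). The CRE BMDM libraries 1 and 2 were close to each other, with a variance of 1.97 (control) and 3.12 (DMXAA) times that of counting error, against 29.6 and 19.9 for the WT libraries. Among the BMDCs, the CRE libraries numbered 2 had a neutrophil marker sum of 273 and 516 FPKM, against 18.5 to 41.3 in the other 10, and a macrophage marker sum of 1375 and 1600, against 4556 to 6381. Over 6 mast cell and basophil markers the other 10 BMDC libraries had 60.7 to 265.6 FPKM. The CRE BMDC libraries numbered 2 had 17.6 and 28.1 there, and the 8 BMDM libraries at most 0.727. In such bulk samples, fewer cells of a type and less RNA per cell cannot be told apart.

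Tmem173 did not separate the labels in BMDCs. It had 28.8 to 55.3 FPKM in the 6 WT libraries and 19.7 to 36.9 in the 6 CRE libraries. In BMDMs 1 and 2 it had 14.7 and 9.91 FPKM in WT control, 31.8 and 22.8 in WT DMXAA, 10.4 and 8.76 in CRE control, and 9.12 and 10.1 in CRE DMXAA. It was never near 0, so it does not check the deletion, and the names WT and CRE below are those of the labels. The interferon-stimulated gene Ifit1 had 978 to 1228 FPKM in the 6 DMXAA BMDC libraries and at most 0.556 in the controls. In BMDMs it had 1779 and 1888 FPKM in WT DMXAA, 371 and 368 in CRE DMXAA, and at most 1.78 in the 4 controls.

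In the table, which uses GRCm38 and whose coordinates for all 10 genes match GENCODE M21, Fos (ENSMUSG00000021250) lies at chr12:85473890-85477273, Fosb (ENSMUSG00000003545) at chr7:19302696-19310051 and Fosl2 (ENSMUSG00000029135) at chr5:32135801-32157842. Jun (ENSMUSG00000052684) lies at chr4:95049034-95052222, and Junb (ENSMUSG00000052837) and Jund (ENSMUSG00000071076) lie on chromosome 8, at chr8:84974484-84978718 and chr8:70698949-70700616. Atf3 (ENSMUSG00000026628) lies at chr1:191170296-191218039, Egr2 (ENSMUSG00000037868) at chr10:67535475-67542188 and Klf6 (ENSMUSG00000000078) at chr13:5861482-5870394. Egr1 is ENSMUSG00000038418.

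The promoters of 6 of these genes are shown because their RNA gave the largest differences or the clearest contrast within a family. Each line gives the stretch that ends just before the RefSeq start, 5′ to 3′ (GRCm38.p6), and capitals mark TGACG on either strand, TGACNTCA on either strand and, in Egr2, also the CArG box, the site of serum response factor. TGACG is the core shared by cAMP response elements, the sites of CREB and ATF dimers, and TGACNTCA is the longer site that JUN and ATF dimers also bind.
Fos, chr12:85473755-85473889, plus strand: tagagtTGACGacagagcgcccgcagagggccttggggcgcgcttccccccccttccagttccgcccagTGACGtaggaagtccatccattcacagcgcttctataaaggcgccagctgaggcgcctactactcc
Jun, chr4:95052223-95052357, minus strand: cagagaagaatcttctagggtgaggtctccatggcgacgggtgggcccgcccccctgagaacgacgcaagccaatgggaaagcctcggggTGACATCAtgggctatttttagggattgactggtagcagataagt
Junb, chr8:84978749-84978883, minus strand: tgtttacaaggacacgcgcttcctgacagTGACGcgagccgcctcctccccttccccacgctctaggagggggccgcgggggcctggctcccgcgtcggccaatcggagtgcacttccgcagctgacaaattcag
Atf3, chr1:191183334-191183468, minus strand: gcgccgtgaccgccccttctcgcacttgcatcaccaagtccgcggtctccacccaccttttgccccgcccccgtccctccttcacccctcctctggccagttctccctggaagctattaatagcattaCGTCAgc
Egr2, chr10:67537734-67537868, plus strand: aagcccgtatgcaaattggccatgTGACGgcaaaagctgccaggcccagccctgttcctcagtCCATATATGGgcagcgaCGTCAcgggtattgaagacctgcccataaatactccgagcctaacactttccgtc
Klf6, chr13:5861354-5861488, plus strand: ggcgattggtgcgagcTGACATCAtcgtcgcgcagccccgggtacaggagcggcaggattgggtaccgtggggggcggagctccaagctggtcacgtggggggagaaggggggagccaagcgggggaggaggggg
In the 250 bases before the start, TGACG occurred in 5 of the 9 genes with a window (Fos, Fosb, Junb, Atf3 and Egr2), against 17.8% of 32851 windows in the mouse table. TGACNTCA occurred in Jun and Klf6, against 7.49% of windows, and the CArG box in Egr2 alone of the 9, against 1.47%. A TGACNTCA with G at the open base would also hold TGACG, but none of the 9 genes had both TGACG and TGACNTCA. Egr2 has 5 RefSeq windows, of which the first with both TGACG and the CArG box is shown. The stretches of Atf3 and Egr2 lie inside the gene intervals given above, not before their outer ends. A gene counted if any of its windows matched, whereas the shares are of single windows, so a gene with several windows, such as Egr2, matches more easily. A match to these letters only describes the sequence. Bases farther upstream were not searched, nor was the promoter of Egr1, so a missing match does not mean that a gene lacks the site.

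**Figure D1:**
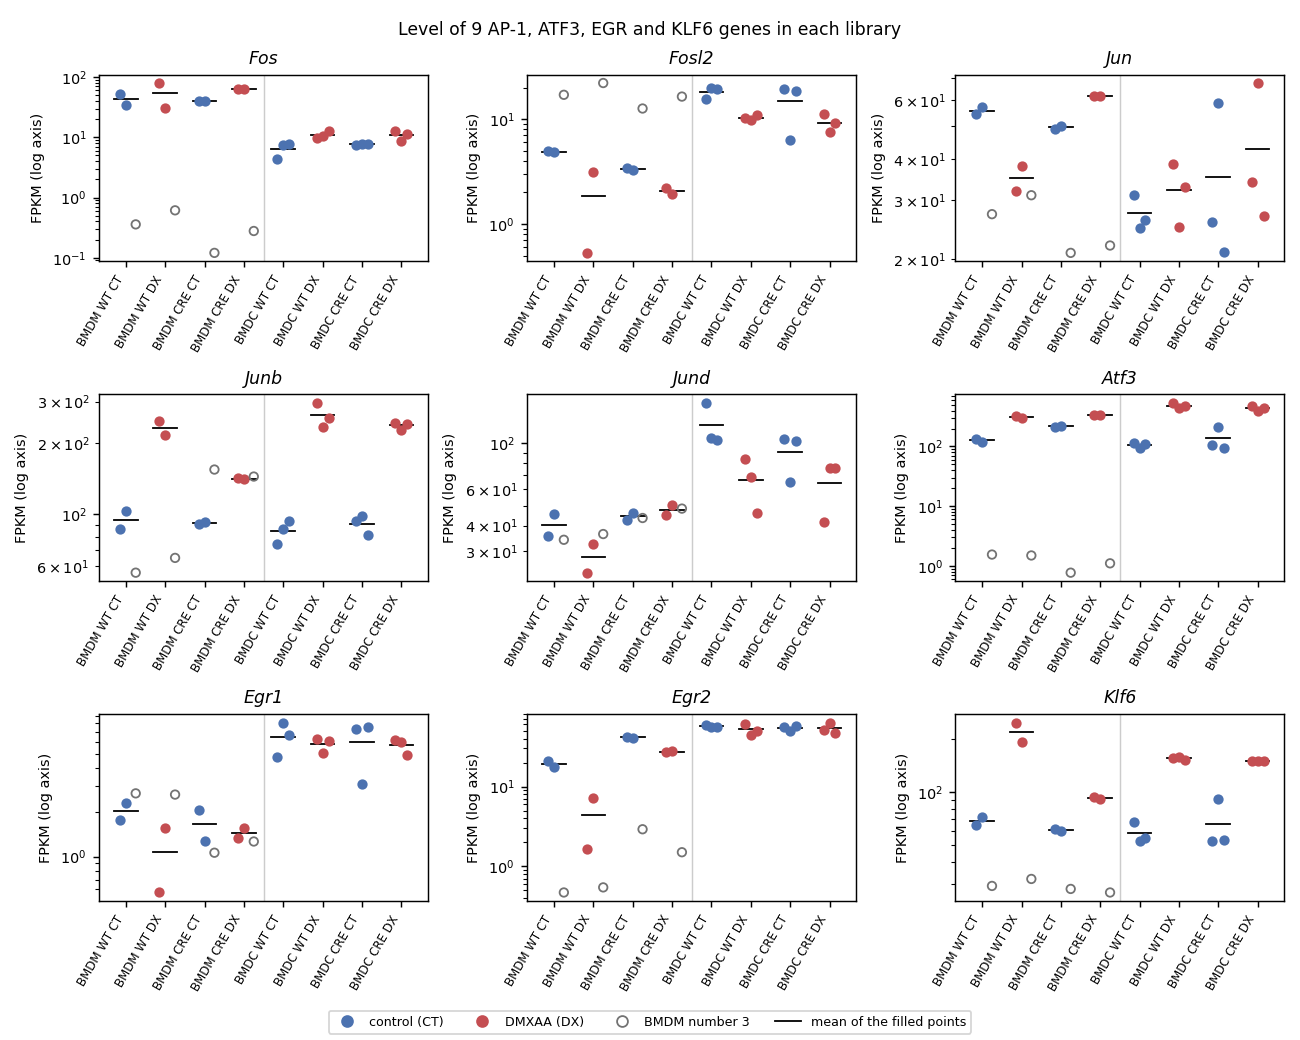
FPKM of 9 genes (log axes) in each of 24 libraries, by cell type, genotype label and treatment (CT, control; DX, DMXAA). Filled points are the libraries compared, lines their means, and open grey points the 4 BMDM libraries numbered 3, which lay far below the other BMDM libraries for Fos and Atf3 and above them for Fosl2.

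DMXAA raised Junb, Atf3 and Klf6 in both cell types of the WT label. A gene was called where edgeR's adjusted p was under 0.05 over all genes tested, and 9 of the 10 genes passed the filter on low values in each comparison, all but Fosb. In WT BMDCs, 4 of 9 rose (Fos, Junb, Atf3 and Klf6), where 17.0% of 12126 genes rose, and 1 fell (Jund), where 15.2% fell. In CRE BMDCs, 3 of 9 rose (Junb, Atf3 and Klf6) and the other 6 were not called, where 14.0% of genes rose and 11.4% fell. In WT BMDMs, 3 of 9 rose (Junb, Atf3 and Klf6) and 3 fell (Jun, Jund and Egr2), against 18.4% and 20.7% of 11569 genes. In CRE BMDMs, 2 of 9 rose (Junb and Atf3) and the other 7 were not called, against 7.28% and 2.72%. The FPKM of control and DMXAA did not overlap for 6 of 9 genes in WT BMDCs, 4 in CRE BMDCs, 8 in WT BMDMs and 7 in CRE BMDMs. Over all genes tested these shares were 49%, 34.6%, 62.5% and 76.7%, so a lack of overlap says little in BMDMs. The median log2 fold change of the 9 genes was 0.20 in WT BMDCs, 0.26 in CRE BMDCs, -0.63 in WT BMDMs and 0.29 in CRE BMDMs, beside 0.01, -0.01, -0.08 and -0.01 over all genes tested.

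These fold changes are relative to the bulk of the transcriptome, because counts were scaled by TMM. Scaling by total counts alone moved the median of all genes to -0.36 in WT BMDCs, -0.34 in CRE BMDCs, -0.59 in WT BMDMs and -0.24 in CRE BMDMs. It also cut the share of called genes that were higher from 52.7% to 26.4%, 55.2% to 26.4%, 47.1% to 20.4% and 72.8% to 43.6%, in that order. With it, Junb, Atf3 and Klf6 were still called higher in WT and CRE BMDCs and in WT BMDMs. With the 4 libraries numbered 3 added, 0 of 9 genes were called by edgeR in any of the 5 BMDM comparisons, where 1 had an unadjusted p under 0.05 for WT DMXAA, 1 for CRE against WT under DMXAA and 0 in the others.

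**Figure D2:**
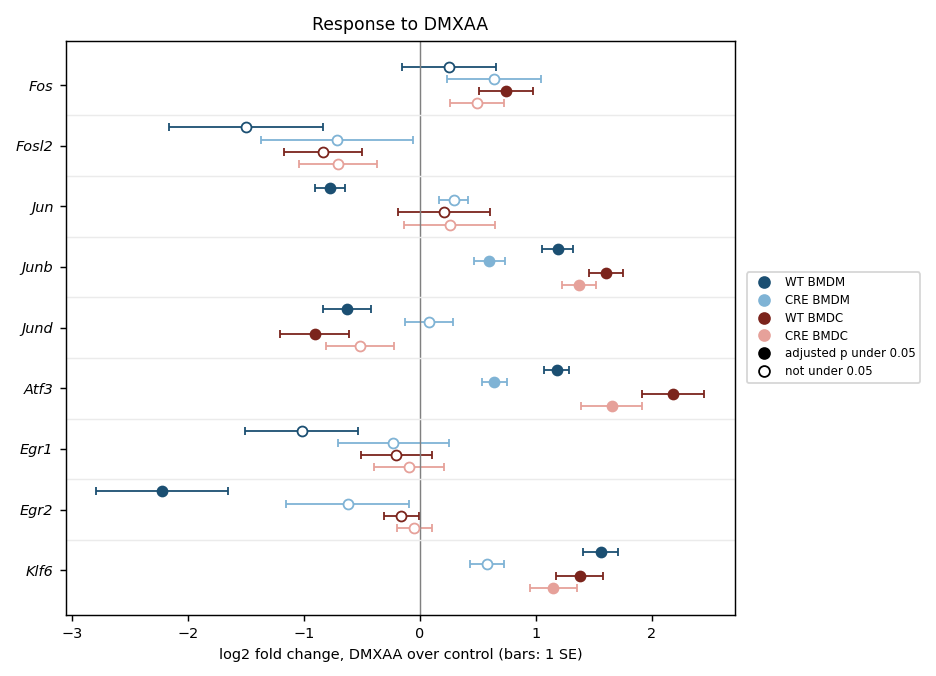
log2 fold change of DMXAA over control for 9 genes in 4 comparisons, from edgeR, with bars of 1 SE (n = 2 libraries per BMDM group, n = 3 per BMDC group). Filled points had an adjusted p under 0.05. Junb, Atf3 and Klf6 lie right of 0 in all 4 comparisons, and Egr2 in WT BMDMs lies farthest to the left.

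Junb encodes a JUN protein that activates transcription weakly and often opposes JUN. In WT BMDCs it had 74.1, 85.9 and 93.6 FPKM without agonist and 297, 234 and 256 with DMXAA. The groups did not overlap, and the rise was 3.04-fold (log2 fold change 1.60 ± 0.15, SE, adjusted p 1.76e-05 in edgeR). In CRE BMDCs it had 93.2, 97.6 and 80.9 FPKM without and 244, 228 and 241.4 with agonist, again without overlap, a rise of 1.37 ± 0.15 on the log2 scale (adjusted p 6.63e-05). In WT BMDMs it had 86.3 and 102.8 FPKM in control and 248 and 217 with DMXAA, a 2.27-fold rise (1.19 ± 0.14, adjusted p 0.000921). In CRE BMDMs it had 90.7 and 92.7 FPKM in control and 142 and 140.0 with DMXAA, a rise of 1.51-fold (0.60 ± 0.13, adjusted p 0.0386), which total-count scaling reduced to 0.37 (adjusted p 0.08). Across the 8 group means of log2(FPKM + 1), the genes whose levels were most like those of Junb were Mul1 (Pearson r = 0.999), Chd1 (0.998) and Bbx (0.995) of 8215 genes compared. These 8 points share the cell types and the agonist, so the correlations only describe the pattern.

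Jun itself did not follow Junb. In WT BMDMs Jun had 54.3 and 57.1 FPKM in control and 32.0 and 38.1 with DMXAA. Both DMXAA libraries were below both controls, and the fall was to 0.583 of control (log2 fold change -0.78 ± 0.13, adjusted p 0.00397). In CRE BMDMs Jun had 49.1 and 50.2 FPKM in control and 61.7 and 61.7 with DMXAA, higher in both, with a log2 fold change of 0.29 ± 0.13 that was not called (adjusted p 0.206). In BMDCs the values spread more. Jun had 24.9 to 31.2 FPKM in WT control, 25.1 to 38.5 in WT DMXAA, 21.1 to 58.9 in CRE control and 27.0 to 67.4 in CRE DMXAA, and the highest CRE value of each treatment was that of library 2. The groups overlapped, and the log2 fold changes were 0.21 ± 0.40 in WT and 0.26 ± 0.40 in CRE BMDCs, both of which turned negative under total-count scaling (-0.16 and -0.06). Leaving out the CRE DMXAA library numbered 2 turned the CRE value to -0.22, and leaving out CRE control library 3 to -0.01.

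Jund, the JUN protein that most cells hold at a steady level and that slows growth, had the highest FPKM of the 3 in 5 of the 6 control BMDC libraries. In WT BMDCs it had 157, 106 and 104 FPKM without agonist and 84.2, 68.4 and 46.3 with DMXAA, without overlap, and it fell by 0.91 ± 0.30 on the log2 scale (adjusted p 0.0359). That call was lost on leaving out WT control library 1 (-0.69, adjusted p 0.15), 2 (-0.996, adjusted p 0.0539) or 3 (-1.01, adjusted p 0.0502), or WT DMXAA library 2 (-0.93, adjusted p 0.0863) or 3 (-0.71, adjusted p 0.13). In CRE BMDCs the values were 105, 64.8 and 102.8 FPKM without and 41.6, 75.6 and 76.3 with agonist, which overlapped (-0.52 ± 0.29, adjusted p 0.232), and total-count scaling called the difference (-0.87, adjusted p 0.0327). In WT BMDMs Jund had 35.6 and 45.4 FPKM in control and 23.7 and 32.7 with DMXAA, a fall of 0.63 ± 0.21 (adjusted p 0.0495). The median of ratios as scaling (-0.56, adjusted p 0.0651), limma (adjusted p 0.0733 and 0.0723), a fit of only the groups compared (-0.56, adjusted p 0.237) and leaving out WT DMXAA library 1 (-0.41, adjusted p 0.178) or WT control library 2 (-0.41, adjusted p 0.175) ended that call. In CRE BMDMs the 4 libraries had 42.8 to 50.4 FPKM, with a log2 fold change of 0.08 ± 0.20 that became -0.15 under total-count scaling.

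The makeup of JUN-family RNA shifted accordingly. Per library, Junb made up 28.3% to 44.1% of the summed FPKM of Jun, Junb and Jund in the 6 control BMDC libraries and 61.4% to 76.4% in the 6 with DMXAA. In WT BMDMs it made up 49.0% and 50.1% in control and 81.7% and 75.4% with DMXAA. In CRE BMDMs the same shares were 49.6% and 49.0% in control and 57.1% and 55.6% with DMXAA. The Junb shares in DMXAA exceeded every control share of their own cell type in both labels.

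**Figure D3:**
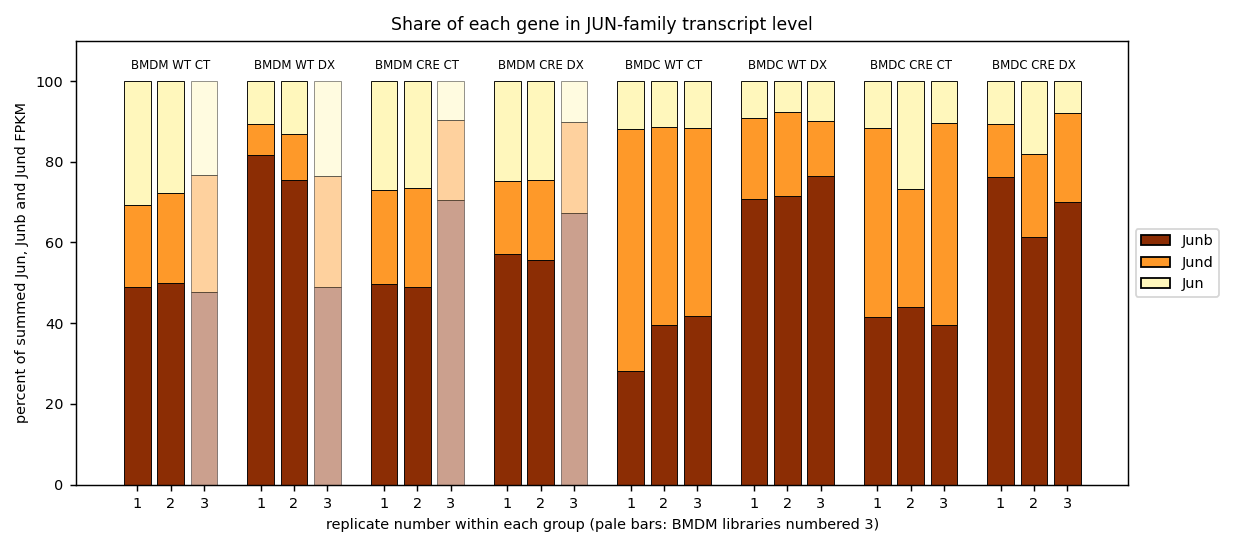
Share of Junb, Jund and Jun in the summed FPKM of the 3 genes, as percent, in each of 24 libraries. Bars are single libraries by replicate number, and pale bars are the 4 BMDM libraries numbered 3. The Junb share is 81.7% and 75.4% in WT DMXAA BMDMs and 57.1% and 55.6% in CRE DMXAA BMDMs.

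Fos, the archetypal FOS protein, differed mainly between the cell types. In WT BMDCs it had 4.29, 7.47 and 7.62 FPKM without agonist and 9.62, 10.7 and 12.7 with DMXAA. All 3 DMXAA libraries were above the controls, a 1.67-fold rise (0.74 ± 0.23, adjusted p 0.0312). Leaving out WT control library 1 (0.52, adjusted p 0.0788), WT DMXAA library 2 (0.76, adjusted p 0.0608) or 3 (0.61, adjusted p 0.115), or scaling by total counts (0.37, adjusted p 0.273), ended the call. In CRE BMDCs it had 7.45, 7.86 and 7.71 FPKM without and 12.6, 8.75 and 11.5 with agonist, without overlap (0.49 ± 0.23, adjusted p 0.155). The replicate block within genotype called this difference (0.47, adjusted p 0.0441). In WT BMDMs Fos moved in opposite ways in the numbered libraries, from 52.1 to 79.6 FPKM in number 1 and from 33.8 to 31.0 in number 2, which held more fibroblast RNA. The log2 fold change there was 0.25 ± 0.41 and turned to -0.30 under total-count scaling. It was -0.57 without WT DMXAA library 1 (adjusted p 0.146) and was called without library 2 (0.77, adjusted p 0.0484). In CRE BMDMs Fos had 40.2 and 40.3 FPKM in control and 63.6 and 63.7 with DMXAA (0.64 ± 0.41, adjusted p 0.359), where the SE shared over the groups carries the spread of the WT libraries.

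Fosl2, which encodes FRA-2, a FOS protein that lacks the strong activation domain of FOS, was lower with DMXAA by its values in each of the 4 comparisons, although none was called. In WT BMDCs it had 15.5, 19.7 and 19.3 FPKM without and 10.4, 9.73 and 10.97 with agonist, without overlap (-0.84 ± 0.34, adjusted p 0.0827). The replicate block within genotype called it (-0.83, adjusted p 0.00861). Total-count scaling called Fosl2 lower in WT BMDCs (-1.20, adjusted p 0.0207), CRE BMDCs (-1.06, adjusted p 0.0404) and WT BMDMs (-1.96, adjusted p 0.0486). In CRE BMDCs it had 19.6, 6.34 and 18.5 FPKM without and 11.1, 7.52 and 9.14 with agonist (-0.71 ± 0.34, adjusted p 0.155). The low control value was that of library 2, and without the CRE libraries numbered 2 the change was called in both labels (-0.83, adjusted p 0.000905 in WT and -0.94, adjusted p 0.00206 in CRE). In BMDMs it had 4.93 and 4.88 FPKM in WT control, 0.530 and 3.17 in WT DMXAA, 3.40 and 3.30 in CRE control, and 2.22 and 1.92 in CRE DMXAA. The log2 fold changes were -1.50 ± 0.66 in WT and -0.72 ± 0.65 in CRE BMDMs, and the first was called without WT DMXAA library 1 (-0.73, adjusted p 0.0156) or library 2 (-3.33, adjusted p 0.00015). Fosb, the remaining FOS-family gene among the 10, stayed under an FPKM of 1 in all 24 libraries and was not tested.

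Atf3 had the largest called rise of the 9 genes in BMDCs. In WT BMDCs it had 113, 94.0 and 109 FPKM without agonist and 539, 439 and 478 with DMXAA. The groups stood far apart, with a 4.53-fold rise (2.18 ± 0.27, adjusted p 0.000125). In CRE BMDCs it had 106, 209 and 94.7 FPKM without and 471, 389 and 448 with agonist (1.65 ± 0.26, adjusted p 0.000931), and the high control value was again that of library 2. In WT BMDMs it had 134.7 and 120.4 FPKM in control and 325 and 297 with DMXAA, a 2.26-fold rise (1.18 ± 0.11, adjusted p 0.000409). In CRE BMDMs it started higher, at 216 and 217 FPKM, and reached 343 and 342 (0.64 ± 0.11, adjusted p 0.0157). In CRE BMDMs, leaving out any 1 of the 4 CRE libraries (control 1 or 2, DMXAA 1 or 2) ended the calls of both Atf3 (0.63 to 0.64, adjusted p 0.133 to 0.185) and Junb (0.58 to 0.61, adjusted p 0.202 to 0.275). The Atf3 stretch printed above, before a RefSeq start inside the gene's interval, has TGACG, read on the minus strand, 3 to 7 bases before that start. The genes with levels most like those of Atf3 over the 8 group means were Dopey2 (r = 0.983), Sowahc (0.982) and the locus listed as Mir221 (0.980).

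Klf6 rose in 3 of the 4 comparisons, and in CRE BMDMs its call depended on the test. In WT BMDCs it had 67.9, 52.8 and 55.1 FPKM without agonist and 155, 157 and 151 with DMXAA, a 2.60-fold rise (1.38 ± 0.20, adjusted p 0.000457). In CRE BMDCs it had 52.9, 91.4 and 53.6 FPKM without and 149, 149 and 149 with agonist, without overlap (1.15 ± 0.20, adjusted p 0.00184). In WT BMDMs it had 65.1 and 72.5 FPKM in control and 246 and 192 with DMXAA, a 2.94-fold rise (1.56 ± 0.15, adjusted p 0.000431). In CRE BMDMs it had 61.7 and 60.03 FPKM in control and 93.7 and 90.6 with DMXAA, which did not overlap but missed the threshold (0.58 ± 0.14, adjusted p 0.0547). It was called there by DESeq2 (adjusted p 0.00553), by limma with either pseudocount (0.0491 and 0.0475), without the filter on low values (0.0216) and in a fit of only the groups compared (2.11e-08). That last fit takes its spread from the close CRE pairs alone, at 1.97 and 3.12 times counting error. The labels do not say whether these are separate cultures, so its p-value carries little weight. Its levels were most like those of H2-K2 (r = 0.996), Csrp1 (0.995) and Tlk2 (0.995) over the 8 group means.

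Egr2 fell in WT BMDMs and was not called in BMDCs. In WT BMDMs it had 21.04 and 17.6 FPKM in control and 1.64 and 7.17 with DMXAA. Both DMXAA libraries were below both controls, at 0.215 of control by the fit (-2.22 ± 0.57, adjusted p 0.0213), and the call was lost without WT control library 1 (-2.08, adjusted p 0.0559). The value was -1.52 without WT DMXAA library 1 and -3.68 without library 2, both called. A fit of only the WT BMDM groups called neither Egr2 (-2.15, adjusted p 0.117) nor Jun (-0.71, adjusted p 0.0886). In CRE BMDMs it had 42.2 and 41.0 FPKM in control and 27.2 and 27.6 with DMXAA (-0.62 ± 0.53, adjusted p 0.498). In BMDCs it had 55.2 to 59.5 FPKM in WT control and 44.8 to 61.2 in WT DMXAA, with overlap (-0.16 ± 0.15, adjusted p 0.483), and 49.9 to 57.6 and 46.4 to 63.3 in the CRE groups (-0.05 ± 0.15, adjusted p 0.869). Total-count scaling called it lower in WT BMDCs (-0.53, adjusted p 0.0169) and gave -0.39 in CRE BMDCs (adjusted p 0.0671). Levels most like those of Egr2 were those of Nek6 (r = 0.986), Acot13 (0.983) and Sdf2l1 (0.968). Egr1, the best known gene of the family, was low throughout, with 3.08 to 8.10 FPKM in BMDCs and 0.572 to 2.30 in the 8 BMDMs. It was called in none of the 4 comparisons, with log2 fold changes from -1.02 ± 0.49 in WT BMDMs to -0.10 ± 0.30 in CRE BMDCs. In WT BMDMs it was called without WT DMXAA library 2 (-1.96, adjusted p 0.0154), under total-count scaling (-1.50, adjusted p 0.043) and without the filter on low values (-0.998, adjusted p 0.035).

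CRE cells were compared with WT cells by label, because Tmem173 did not check the deletion. Under DMXAA, Ifit1 had 978 to 1186 FPKM in the CRE BMDCs and 1082 to 1228 in the WT BMDCs. In BMDMs under DMXAA the labels did differ, with Ifit1 at 371 and 368 FPKM in CRE against 1779 and 1888 in WT. Tmem173 there was 9.12 and 10.1 FPKM in CRE against 31.8 and 22.8 in WT. It was not near 0 in either cell type, so whether the responses need STING was not tested. In BMDCs none of the 9 genes was called. Under DMXAA, without agonist and in the difference of the 2 responses, 0 of 9 genes were called by edgeR, DESeq2 or limma and 0 had an unadjusted p under 0.05 in edgeR. Of 12126 genes 0% were called by edgeR in each, with an unadjusted p under 0.05 for 108, 99 and 60 genes, and DESeq2 called 0, 0 and 1. Under DMXAA the log2 differences ran from -0.15 ± 0.34 (Fosl2) to 0.42 ± 0.40 (Jun), so changes of this size were not resolved by the spread between libraries. Close pairs of BMDC libraries crossed the labels, such as WT 3 with CRE 1 (a variance of 2.51 and 2.71 times counting error in control and DMXAA) and WT 2 with CRE 3 (3.03 and 2.73). Pairs within a label had 5.15 to 46.2, and all pairs across the labels 2.51 to 41.6.

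In BMDMs under DMXAA, 3 of 9 genes were higher in CRE than in WT cells (Jun, Jund and Egr2), where 9.26% of 11569 genes were higher, and 2 were lower (Junb and Klf6), where 9.99% were lower. Egr2 was 6.34-fold higher in CRE cells (log2 difference 2.66 ± 0.58, adjusted p 0.0225). Jun was 1.82-fold higher (0.86 ± 0.13, adjusted p 0.00675) and Jund 1.75-fold higher (0.80 ± 0.21, adjusted p 0.0385). Klf6 was at 0.436 of WT (-1.20 ± 0.15, adjusted p 0.00367) and Junb at 0.628 (-0.67 ± 0.13, adjusted p 0.0174). Atf3 was not called (0.19 ± 0.11, adjusted p 0.277). Its groups did not overlap, as for 62.8% of all genes in this comparison, and total-count scaling called it higher in CRE (0.43, adjusted p 0.029). Under total-count scaling 70.9% of the genes called were higher in CRE, against 48.1% with TMM, the median of all genes moved to 0.24, and the 5 genes were called in the same directions. Leaving out either CRE DMXAA library left 0 of these calls, and leaving out WT DMXAA library 1 left 3. Egr2 was then 1.97, and it was 4.12 without WT DMXAA library 2, where 6 genes were called. Without WT libraries 2, which leaves WT with 1 library per group and takes the spread from the close CRE pair, 8 were called.

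Without agonist, 0 of 9 genes were called between CRE and WT BMDMs by edgeR, where 0.0432% of genes were called, and 1 (Atf3) had an unadjusted p under 0.05. DESeq2 called 1 gene, Atf3. Of all genes, 5 were called, of which 100% were higher in CRE, against 83.3% under total-count scaling. Atf3 was 1.65-fold higher in CRE (0.72 ± 0.11, adjusted p 0.193), and it was called on leaving out WT control library 1 (0.79, adjusted p 0.0313). Egr2 had a difference of 1.07 ± 0.54 (adjusted p 0.735), with 42.2 and 41.0 against 21.04 and 17.6 FPKM.

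The difference between the responses of the labels was itself tested. In BMDMs 1 of 9 genes was called higher and 0 lower, where 1.38% and 2.28% of genes were called. That gene was Jun, which fell in WT and not in CRE BMDMs, with a log2 difference of 1.07 ± 0.18 between the responses (adjusted p 0.0342). Klf6 had -0.98 ± 0.20 and lay just over the threshold (adjusted p 0.054). Egr2, with 1.60 ± 0.77 (adjusted p 0.31), Junb, with -0.59 ± 0.19 (adjusted p 0.148), and Atf3, with -0.54 ± 0.15 (adjusted p 0.114), were not called. Jun lost its call without WT DMXAA library 1 (0.94, adjusted p 0.0502), and without CRE control library 1 (1.03, adjusted p 0.215) or 2 (1.06, adjusted p 0.206), or CRE DMXAA library 1 (1.05, adjusted p 0.205) or 2 (1.07, adjusted p 0.198). Without WT control library 2 the count rose to 3, and without WT DMXAA library 2 to 4. Under total-count scaling the share of called genes with a higher response in CRE was 66.7%, against 37.7%, with a median of 0.32 over all genes.

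**Figure D4:**
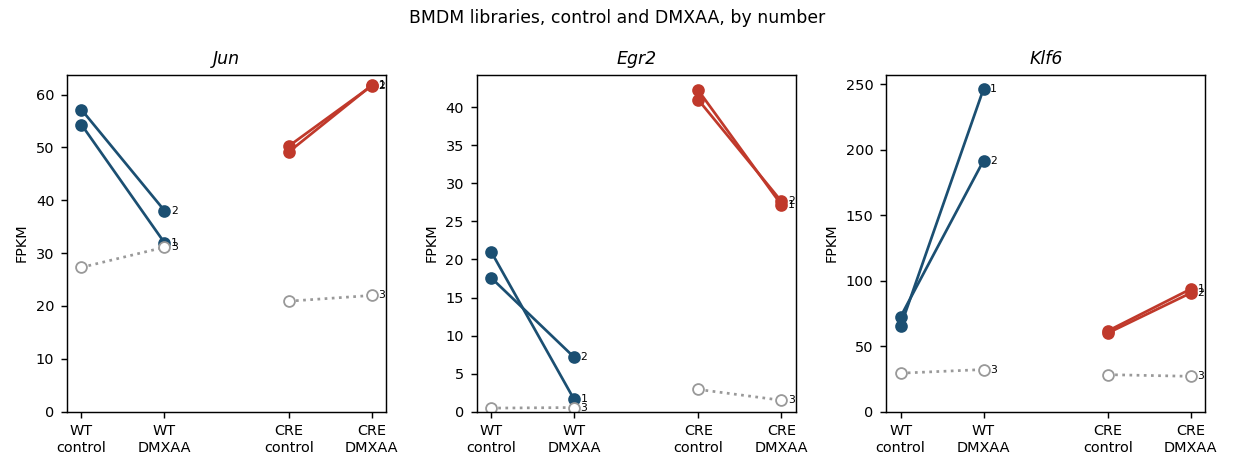
FPKM of Jun, Egr2 and Klf6 in BMDMs, from control to DMXAA, by genotype label. Lines join libraries with the same number, and dotted grey lines with open points are the libraries numbered 3. Jun goes down in both WT lines (54.3 to 32.0 and 57.1 to 38.1) and up in both CRE lines (49.1 and 50.2 to 61.7).

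**Figure D5:**
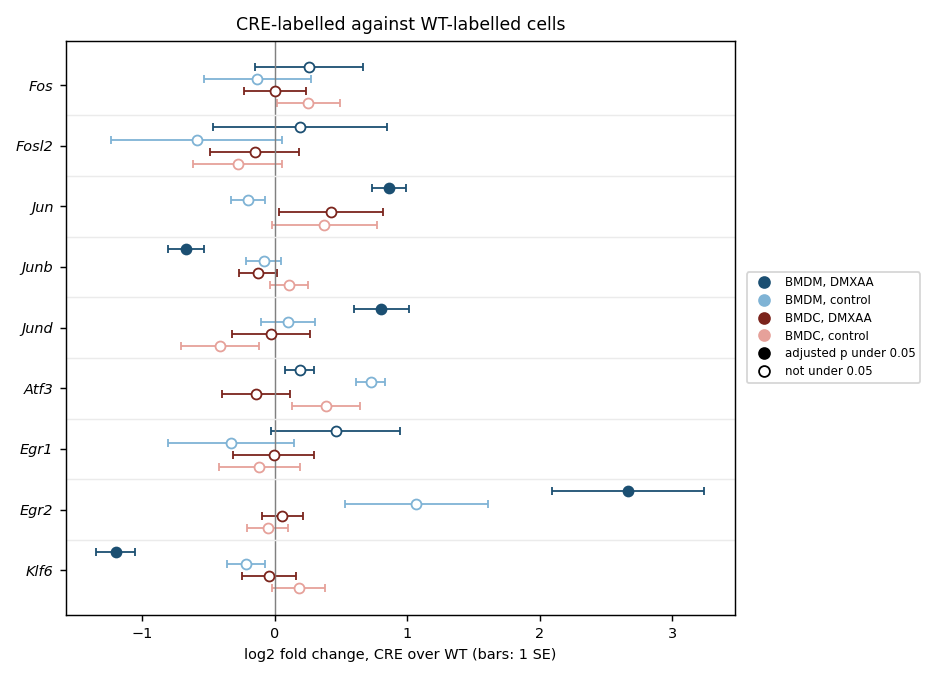
log2 fold change of CRE over WT for 9 genes under DMXAA and in control, in BMDMs (n = 2 per group) and BMDCs (n = 3 per group), with bars of 1 SE. Filled points, with an adjusted p under 0.05, are found in BMDMs under DMXAA, where Egr2 is highest at 2.66 and Klf6 lowest at -1.20.

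WT cells without agonist were compared between the cell types. These are whole cultures, and the BMDCs also carried mast cell and basophil markers, as given above. BMDCs had more Fosl2, Jund, Egr1 and Egr2 (4 of 9 higher, against 14.6% of 12730 genes) and less Fos (1 of 9 lower, against 13.9%). Fos was far below its BMDM level (log2 difference -2.73 ± 0.32, adjusted p 1.25e-05). Fosl2 was 3.68-fold higher in BMDCs (1.88 ± 0.54, adjusted p 0.0152), Egr1 3.17-fold (1.67 ± 0.41, adjusted p 0.00653), Jund 2.99-fold (1.58 ± 0.32, adjusted p 0.00144) and Egr2 2.93-fold (1.55 ± 0.37, adjusted p 0.0052). Jun was at 0.489 of its BMDM level (-1.03 ± 0.37, adjusted p 0.05001). Leaving out WT BMDM control library 1 ended the calls of Fosl2 (adjusted p 0.091) and Egr1 (adjusted p 0.0747), and leaving out library 2 those of Fosl2 (adjusted p 0.081) and Egr2 (adjusted p 0.0514). The response to DMXAA differed between the cell types for 1 of 9 genes, Egr2, against 0.793% of genes higher and 2.20% lower, with the response 2.01 ± 0.51 higher in BMDCs on the log2 scale (adjusted p 0.0449). This call was lost on leaving out any of BMDM WT control 1 or 2, BMDC WT control 1, 2 or 3, or BMDC WT DMXAA 1 or 3, where the value was 1.94 to 2.12. It was 1.32 without BMDM WT DMXAA 1 and 3.55 without BMDM WT DMXAA 2, where 2 genes were called. Total-count scaling gave 46.0% of called genes higher in BMDCs in this test, against 26.5%, with a median of 0.20 over all genes.

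Partners and regulators of these factors were followed by lists of 19 other AP-1 and bZIP genes, 23 other immediate-early genes and EGR cofactors, 11 MAP kinase phosphatases and 21 MAP kinases and activators. In WT BMDCs, 6 of 10 phosphatases tested rose and 1 fell, with a median log2 fold change of 0.98 beside 0.01 for all genes. Dusp14 had a log2 fold change of 5.03 ± 0.89 (adjusted p 0.00139), from a low control mean of 0.265 FPKM to 9.07 with DMXAA. Dusp1, which switches off p38 and JNK, had 1.88 ± 0.36 (adjusted p 0.00219). Of 18 other bZIP genes 4 rose and 3 fell, with Batf2, an interferon-inducible BATF protein, at 4.11 ± 0.36 (adjusted p 1.17e-05). Of 21 immediate-early genes 6 rose and 5 fell. Gadd45b, a stress protein, had 2.87 ± 0.59 (adjusted p 0.00327) and Plk2, a polo-like kinase, 2.498 ± 0.41 (adjusted p 0.000882). Of 18 kinases 5 rose and 2 fell, led by Map3k8, the kinase TPL2 (1.90 ± 0.22, adjusted p 8.71e-05), and Map2k1, the kinase MEK1 (1.70 ± 0.12, adjusted p 2.09e-06). In CRE BMDCs the same lists gave 5 and 1, 3 and 3, 5 and 3, and 4 and 1 genes higher and lower.

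In WT BMDMs 1 of 10 phosphatases rose and 3 fell, with a median of -0.07 beside -0.08 for all genes. Dusp6, a phosphatase of ERK, fell by 2.37 ± 0.30 on the log2 scale (adjusted p 0.00144) and Dusp7, of the same kind, by 1.40 ± 0.28 (adjusted p 0.00873). Of 19 other bZIP genes 5 rose and 4 fell, with Batf2 at 6.58 ± 0.24 (adjusted p 1.13e-05) and Mafk, a small MAF protein, at 2.14 ± 0.40 (adjusted p 0.00671). Of 20 immediate-early genes 6 rose and 7 fell, with Myc at -2.48 ± 0.73 (adjusted p 0.0343) and Plk3 at -2.43 ± 0.49 (adjusted p 0.00843). Of 19 kinases 7 rose and 2 fell, led by Mapkapk2, the kinase MK2 downstream of p38 (1.92 ± 0.12, adjusted p 8.78e-05), and Map3k8 (1.86 ± 0.15, adjusted p 0.000245). In CRE BMDMs 1, 1, 2 and 3 genes of these lists rose and 0, 1, 0 and 1 fell. They included Batf2 (3.41 ± 0.21, adjusted p 0.000193), Dusp1 (1.82 ± 0.39, adjusted p 0.0318), Map2k1 (1.204 ± 0.15, adjusted p 0.00419) and Zfp36, which encodes the RNA-destabilising tristetraprolin (1.02 ± 0.12, adjusted p 0.00378).

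Under DMXAA the CRE BMDMs had more Dusp6 than WT BMDMs (2.13 ± 0.30, adjusted p 0.00566) and more Ier2, an immediate-early gene (1.83 ± 0.16, adjusted p 0.00138). They had less Mapkapk2 (-1.70 ± 0.12, adjusted p 0.00111), Batf2 (-2.39 ± 0.19, adjusted p 0.00114), Jdp2, a repressor that pairs with JUN proteins (-2.51 ± 0.32, adjusted p 0.0043), and Klf4 (-2.39 ± 0.39, adjusted p 0.00897). Over the lists, 2 of 19 bZIP genes were higher and 4 lower, 5 of 20 immediate-early genes higher and 4 lower, 3 of 10 phosphatases higher and 1 lower, and 1 of 19 kinases higher and 6 lower. The difference between the responses was called for Ier2 (2.18 ± 0.22, adjusted p 0.0113), Dusp3 (1.32 ± 0.16, adjusted p 0.0192), Dusp6 (2.06 ± 0.41, adjusted p 0.0477), Mapkapk2 (-1.45 ± 0.17, adjusted p 0.0154) and Batf2 (-3.17 ± 0.30, adjusted p 0.011). Between the cell types without agonist, Batf3, which some dendritic cell types need, was 6.26 ± 0.55 higher on the log2 scale in WT BMDCs. The log2 difference of Maf, a macrophage factor, was -5.67 ± 0.38 (adjusted p 6.41e-08). The numbers of all genes called in each direction, given above, are the background of these counts, and no list was tested as a set.

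The 4 BMDM libraries numbered 3 carried another set of these factors. Fos had 0.358 and 0.613 FPKM (WT control and DMXAA) and 0.120 and 0.278 (CRE), and Atf3 had 1.54, 1.49, 0.767 and 1.10 in the same order. Both lay far below the 8 other BMDM libraries, whose lowest values were 31.0 for Fos and 120.4 for Atf3. Fosl2 had 17.1, 22.2, 12.7 and 16.5 FPKM, above the 4.93 that was the highest of the 8. Junb had 56.2 and 65.0 FPKM in the WT libraries and 154 and 144 in the CRE libraries, and Klf6 27.0 to 32.2 in the 4. Egr2 had 0.471, 0.545, 2.92 and 1.504 FPKM. With DMXAA, Ifit1 reached 89.9 and 62.7 FPKM in these libraries, from 3.77 and 1.33.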

How the data were processed

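RNA of 24 libraries was sequenced after poly(A) selection, with a NEBNext Ultra kit. The authors deposited raw counts per gene and FPKM for 54532 genes. Per the submitters' processing notes they used CASAVA 1.8, fastp, HISAT2 2.0.5, featureCounts 1.5.0-p3, DESeq2 1.20.0 and GRCm38. Strandedness and pooling were not given in the sources used here. Columns of group means, fold changes and p-values of the authors' own comparisons were not used. Total counts of 15657347 to 18912887 set the counting precision.

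Levels are the deposited FPKM. Counts were tested with edgeR 4.0.16 (R 4.3.3), TMM scaling and the quasi-likelihood test, two-sided, with Benjamini-Hochberg adjustment over all genes tested, and SE was taken as the log2 fold change over the square root of F. Fits held 12 BMDC libraries (FPKM of at least 1 in 3), 8 BMDM libraries (in 2) or both (in 3). The design was of group means without a block. DESeq2 1.42.0 and limma 3.58.1, on log2(FPKM + 1) or log2(FPKM + 0.1), were alternatives, as were other filters and left-out libraries. Total-count scaling and leaving out CRE BMDC number 2 or WT BMDM number 2 were chosen after seeing the data. The fit was tested on simulated counts.

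Members and lists were chosen with earlier results of these data known. From each list the text names genes among the 2 called with the largest absolute change that reached a group mean of 5 FPKM or more. Of 129 list and marker symbols 128 were found once, and Ddit3 was left out. Replicate numbers paired control with DMXAA within a genotype label in BMDCs, from the data (correlations of deviations 0.441 to 0.699), not across labels (-0.494 to -0.035). Promoter windows and the motif search used RefSeq sequences (GRCm38.p6) for 9 of the 10 genes.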

Additional observations from a re-analysis of the deposited data

Results flagged for a closer look

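Jun in BMDMs responded differently in the 2 labels, with a difference of 1.07 on the log2 scale between the CRE and WT responses, tested as the interaction of genotype and DMXAA in edgeR. Egr2 responded differently in the 2 cell types, with a difference of 2.01 between the WT responses of BMDCs and BMDMs in the same kind of test. Both rest on 2 BMDM libraries per group. In data outside the comparisons, Fosb was higher in both DMXAA libraries of BMDM number 3 (0.376 and 0.308 FPKM in WT and CRE) than in both of their controls (0.243 and 0.0908), without a replicate. Groups hold 3 libraries, so no library was tested as an outlier within its group.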

How the results depend on the processing

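Counts below are of the 9 genes tested. The number of all genes called also moved with the setting, in WT BMDCs from 3904 in the main fit to 5103 under total-count scaling. It is not given for most settings, so these counts describe the settings and are not results about the 9 genes. In BMDMs, fits of only the CRE groups and fits without WT number 2 take their spread from the close CRE pairs. In WT BMDCs 5 were called, and 3 to 5 with 1 library left out. In CRE BMDCs 3 were called, 5 under total-count scaling and 3 to 4 with 1 library left out. Total-count scaling called 4512 of all 12126 genes there, against 3084 with TMM. In WT BMDMs 6 were called, 3 in a fit of only the groups compared, 0 with all 12 BMDM libraries and 5 to 9 with 1 left out. In CRE BMDMs 2 were called, 4 without the filter on low values, 1 under total-count scaling, 7 in a fit of only the groups compared, 0 with all 12 libraries, 7 without WT BMDM number 2 and 0 to 0 with 1 left out. For CRE against WT under DMXAA in BMDMs 5 were called, 3 in a fit of only the groups compared, 0 with all 12 libraries, 8 without WT BMDM number 2 and 0 to 6 with 1 left out. For the same without agonist 0 were called, 1 by DESeq2, 2 without the filter, 5 without WT BMDM number 2 and 0 to 1 with 1 left out. For the difference of the 2 responses in BMDMs 1 was called, 2 with median-of-ratios factors, 4 by DESeq2, 2 by limma with a pseudocount of 1 or 0.1, 3 without the filter, 2 with an FPKM of at least 5, 0 with all 12 libraries, 8 without WT BMDM number 2 and 0 to 4 with 1 left out. Between the cell types 5 were called, 2 with all 12 BMDM libraries and 3 to 5 with 1 left out. For the cell type difference of the responses 1 was called, 0 in a fit of only the groups compared, 0 with all 12 libraries and 0 to 2 with 1 left out. For genotype in BMDCs 0 were called under every alternative run. Apart from settings whose construction leaves fewer or more mixed libraries, the cause was not tested. Fos, CRE against WT under DMXAA in BMDMs, turned from 0.26 to -0.26 (adjusted p 0.00329, edgeR) without WT BMDM number 2, where WT has 1 library and its spread is taken to be that of the CRE pair.

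With the replicate number as a block, the calls were 4 in WT BMDCs (Jund, adjusted p 0.0591), 3 in CRE BMDCs, 6 in WT BMDMs, 2 in CRE BMDMs, 5 for CRE against WT under DMXAA in BMDMs, 1 for the difference of the responses there and 0 for that between cell types (Egr2, 2.14, adjusted p 0.0608). With the replicate block within genotype they were 6, 4, 8 and 4 in the DMXAA comparisons in the same order, 4 for the difference of the responses in BMDMs and 2 for that between cell types. That block also called more of all genes, 5911 of 12126 in WT and 5181 in CRE BMDCs, against 3904 and 3084 in the main fit. In BMDMs, with 2 numbers, the correlations of control and DMXAA were 0.712 in WT and 0.031 in CRE, and the numbers were not taken as pairs. The block within genotype there gained Fosl2 (-1.82, adjusted p 0.0346) and Egr1 (-1.12, adjusted p 0.0391) in WT, and Fos (0.64, adjusted p 0.0448) and Klf6 (0.58, adjusted p 0.0305) in CRE. Over single genes, 1629 of 1826 values kept direction and side of the threshold or moved by less than 1 SE, 79 lost a call and 86 gained one.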

Other observations

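The order of the 10 genes by FPKM, a level per gene length, differed between the cell types and changed with DMXAA. In WT control BMDMs Atf3 led (127.5), before Junb (94.5), Klf6 (68.8), Jun (55.7), Fos (43.0) and Jund (40.5), and only Fos and Jund overlapped among these. In WT control BMDCs Jund led (122), overlapping Atf3 (105), and Fos (6.46) came after Egr1 (6.51), with overlap, and before Fosb (0.0854). With DMXAA the first 3 places went to Atf3, Junb and Klf6 in all 4 combinations of cell type and label. Egr2 had the 5th place in WT control BMDCs (56.9) and the 7th in WT control BMDMs (19.3).

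The ratio of Fos to Fosl2 FPKM in control was 10.6 and 6.93 in WT BMDMs, 11.8 and 12.2 in CRE BMDMs, and 0.277 to 0.416 in 5 of the 6 BMDC libraries. In CRE BMDC library 2 it was 1.24. In the 6 DMXAA BMDC libraries it was 0.928 to 1.25, and in WT DMXAA BMDMs 150.2 and 9.77, where Fosl2 was at 0.530 FPKM in library 1. In CRE DMXAA BMDMs it was 28.6 and 33.2.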
